A study of Oryza sativa with 12 samples.

Results

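The cytochrome P450 genes of rice that the array could name were followed in shoots of phosphate-starved plants. A gene was a member when its symbol or a synonym was CYP followed by digits and a letter. A member also needed a probe set that names 1 gene. The annotation held 39 genes with such a name. Of these, 8 were left out by the rule, nearly all of them AOS or ABA8OX genes of the CYP74 and CYP707 families, and 9 without a probe set of their own were not analysed here. That left 22 P450 genes in 12 CYP families, of 17905 genes named by such probe sets. Where a gene had several, the probe set brightest on average (mean log2 over the 12 arrays) stood for it.

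The arrays covered 4 genotypes, with 3 biological repeats and so 3 arrays each: wild-type Nipponbare (WT), the phr1 mutant, the phr3 mutant and the phr123 triple mutant, which carries mutations in PHR1, PHR2 and PHR3. All plants of all genotypes grew hydroponically for 14 days with 200 µM phosphate and then for 7 days without phosphate, so every comparison is between starved plants. Shoots were sampled according to the protocol, and the tissue label reads leaf. The sources used here do not give the cultivar behind the mutants or the kind of mutation in each allele. The PHR proteins are MYB-type regulators that activate genes when phosphate runs short.

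Cytochrome P450 enzymes are membrane-bound haem proteins that insert oxygen into small molecules, using electrons passed on from a reductase. Plants use them to build and to break down hormones and defence compounds, and members of one CYP family often act on related substrates. In rice, P450 enzymes carry out some of the oxidation steps in gibberellin and brassinosteroid synthesis. They also oxidise the diterpene skeletons of the phytoalexins momilactone and phytocassane, which rice makes in defence, and the tryptamine that becomes serotonin. The families are described below by these roles.

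The signals are MAS5 values on a linear scale, scaled array by array before deposit. The median signal of the arrays ran from 56.6 to 85.6. The level of unspecific signal on an array was read from reporter controls, probe sets for sequences that rice does not carry. The 95th percentile of their signals, called the reporter level here, ran from 48.4 to 87.6. PHR1 was lower in phr1 (493 ± 79.8, SD, n = 3) than in WT (1042 ± 146). In phr123 PHR1 read 569.1, 753 and 810.6, below the WT arrays (876.9 to 1153.8) and above the phr1 arrays (404.3 to 559.5). PHR2 was at or below the reporter level on all 3 phr123 arrays, at least 28.7-fold below WT. The reporter level leaves out the probe sets of 1 reporter sequence that gave signal in phr123, a choice made after their signal was seen. With them the level in phr123 would be 95.7 to 114.8 and the bound for PHR2 at least 18.1-fold. PHR3 read 57.7, 118.9 and 94.5 in phr3 against 386.7 to 469.1 in WT. In phr123 it read 1186.6, 172.6 and 118.3, so the array labelled phr123 replicate 1 goes against its label for PHR3. The same array stood apart from the other 2 of its genotype for the leaf factor GLK1 (2558 against 7169 and 7557) and for NAAT1, an iron uptake gene of roots (8226 against 2767 and 2895). The sources used here do not tell whether these probe sets lie in the mutated parts of the genes. Results for phr123 are therefore given with and without that array.

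Of the 22 genes, 18 passed the filter on low signals, a mean log2 signal at or above the median of all probe sets, which corresponds to a signal of 49.4. All 18 also passed when the phr123 arrays were left out of the filter. The other 4 (CYP701A9, CYP714C1, CYP703A3 and CYP87A3) were measured but not tested. Changes below are log2 differences from limma with its standard error (SE), and a gene is called when its p-value, adjusted with the Benjamini-Hochberg method over all 28597 probe sets tested, is under 0.05. Precision is limited by the number of arrays, 3 for each genotype.

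**Figure D1:**
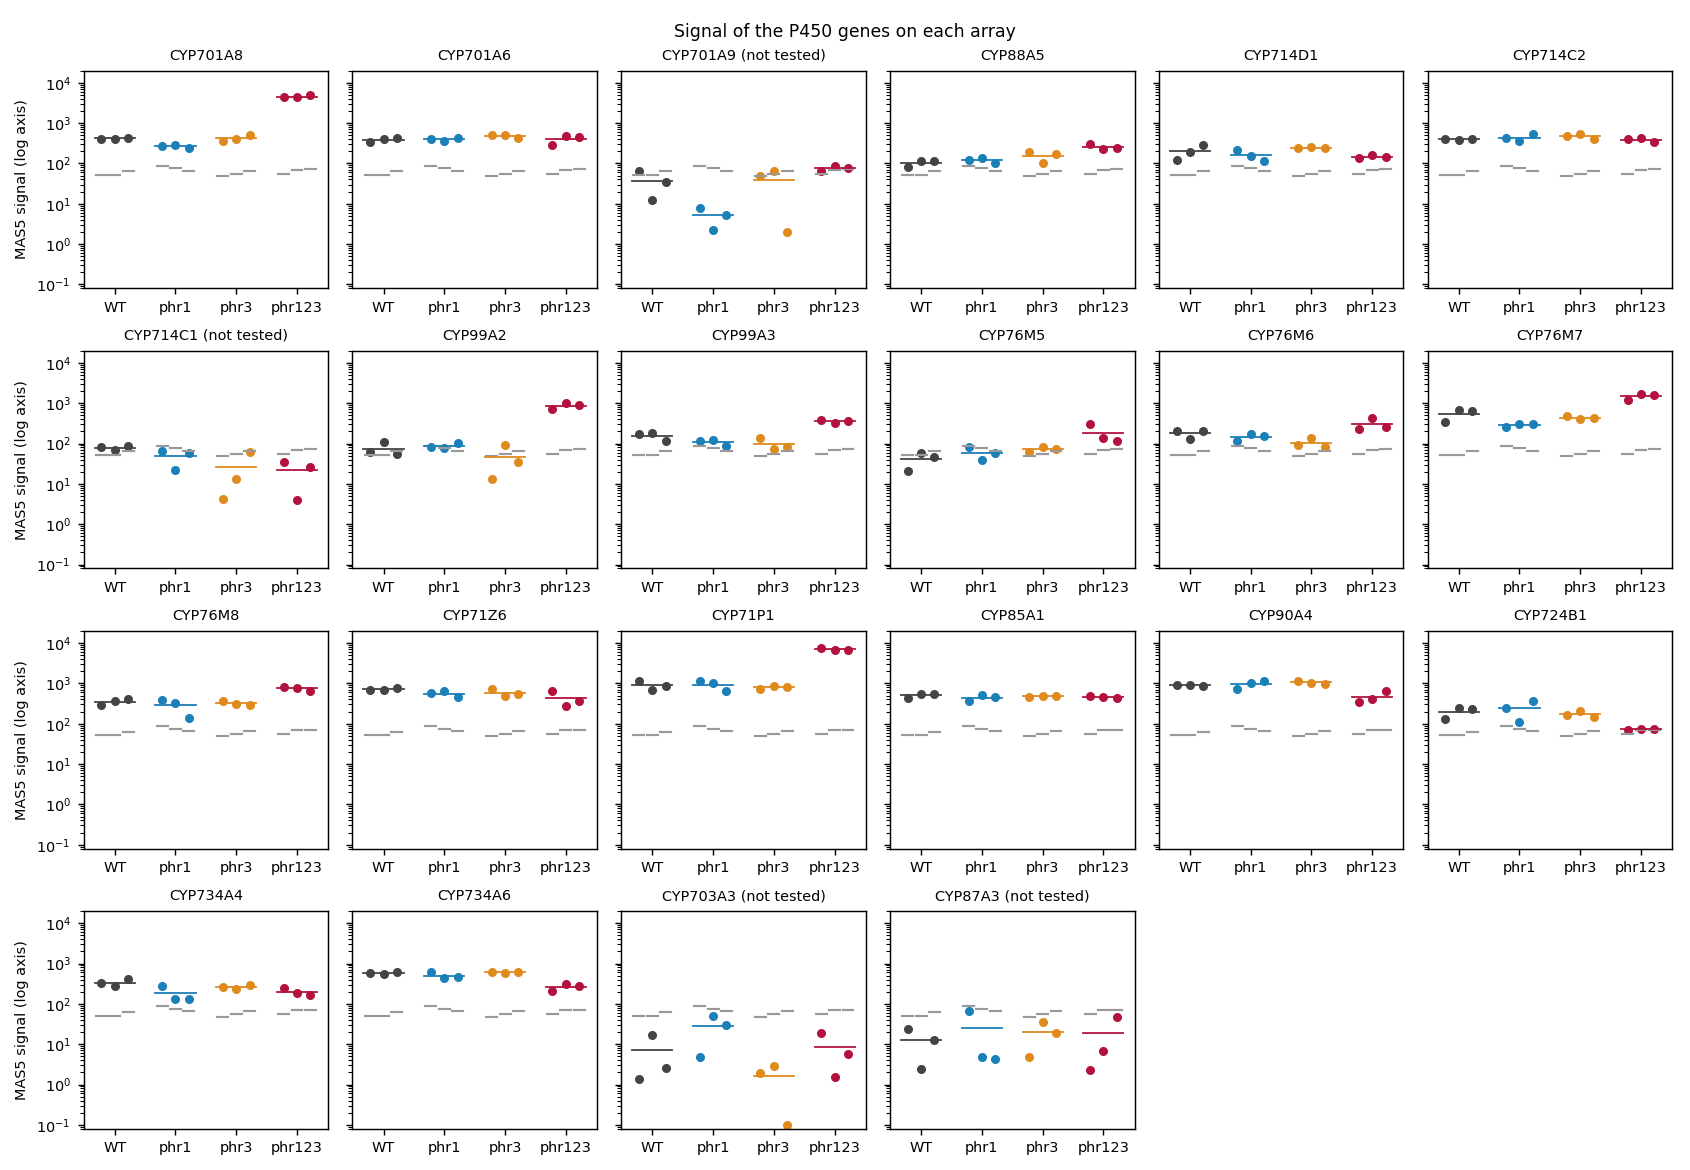
Signal of each of the 22 P450 genes on each array (log axis, MAS5 units), by genotype; points are arrays, coloured lines the mean of 3 arrays, and grey ticks the reporter level of that array. CYP701A8, CYP71P1 and CYP99A2 lie about an order of magnitude higher on the 3 phr123 arrays than on the other 9, while CYP703A3 and CYP87A3 lie at or below the reporter level throughout.

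In phr123 the P450 genes of phytoalexin and serotonin synthesis were mostly higher than in WT, and those of brassinosteroid synthesis and inactivation were mostly lower. Among the 18 genes tested, 8 were higher and 5 were lower. Over all probe sets, 41.5% were called in this comparison, 20.5% higher and 21% lower, so a call in phr123 is common on this array. The called P450 genes were 72.2% of the 18. Their median change was 0.38 on the log2 scale, against 0.02 for all probe sets tested. All 8 higher genes rose by more than 2-fold, and 2 of the 5 lower genes fell by more than 2-fold. Without the array labelled phr123 replicate 1 the counts were 9 higher and 5 lower: all 13 calls held and CYP76M6 was called in addition. Where not given with the gene below, the changes without it were 3.71 for CYP99A2, 1.65 for CYP76M7, 1.23 for CYP88A5, 1.14 for CYP99A3, 1.05 for CYP76M8, -0.94 for CYP734A4 and -1.38 for CYP724B1. With arrays centred on their medians they were 9 higher and 4 lower. These are levels in whole shoots, where fewer cells of a type and less RNA per cell cannot be told apart.

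**Figure D2:**
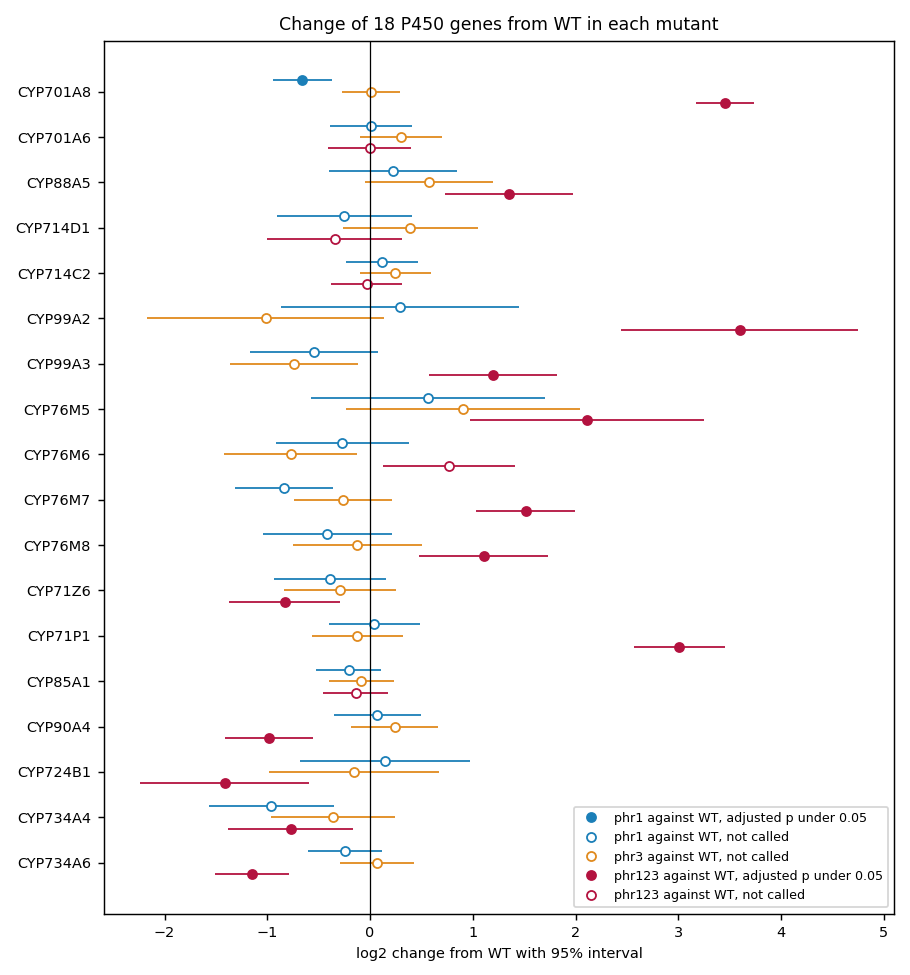
Change of the 18 tested P450 genes from WT (x axis, log2) in phr1, phr3 and phr123, with 95% intervals from limma; filled points have an adjusted p under 0.05. In phr123, 8 genes lie to the right and 5 to the left with filled points; in phr1 the 1 filled point is CYP701A8, and phr3 has none.

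The gibberellin group takes in the CYP701, CYP88 and CYP714 families, which oxidise ent-kaurene and its products. The clearest change in it was in CYP701A8, also known as KOL4, a relative of kaurene oxidase that is tied to phytoalexin synthesis rather than to gibberellin. Its signal was 408.8, 412.1 and 424.5 on the WT arrays and 4381.9, 4393.7 and 4892.3 on the phr123 arrays. It read 272.5, 282.7 and 236.5 in phr1, and 358.3, 411.1 and 499.2 in phr3. Every phr123 array was far above all 9 others. The rise from WT to phr123 was 10.96-fold (log2 3.45 ± 0.13 SE, adjusted p = 3.29e-10), and leaving out the array labelled phr123 replicate 1 gave 3.48 (adjusted p = 9.95e-10).

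CYP701A6, the ent-kaurene oxidase of gibberellin synthesis whose loss causes the dwarf D35, was not called in any comparison. Its mean signal was 391 ± 38.0 for WT, 392 ± 35.3 for phr1, 480 ± 41.5 for phr3 and 398 ± 102 for phr123 (SD, n = 3 each). The difference of phr123 from WT was -0.00, with a 95% interval from -0.40 to 0.40. Its record also carries the name CYP701A19, a near copy, and its probe sets are of a type that may match related sequences. So are the probe sets used for CYP714C2, CYP76M8 and CYP724B1. CYP701A9, of the same family, lies beside CYP701A8 in the genome. It read 64.5, 88 and 76.9 in phr123 and 64, 12.5 and 34.7 in WT. All 3 phr123 arrays were above the reporter level, but 0 of 3 with all reporter controls in that level, so no difference is read from them.

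CYP88A5, an ent-kaurenoic acid oxidase and so a later step towards gibberellin, was higher in phr123. Its WT arrays read 82.7, 112.1 and 112.2 and its phr123 arrays 303.4, 231 and 245.8. The groups did not overlap, and the rise was 2.55-fold (log2 1.35 ± 0.29, adjusted p = 0.00172). In phr1 it had a mean of 119 ± 19.1 and in phr3 of 156 ± 48.7, neither called against WT (adjusted p = 0.863 and 0.458).

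The CYP714 genes gave no call against WT. CYP714D1, known as EUI1, deactivates gibberellins, and its mean was 199 ± 84.4 in WT and 148 ± 13.8 in phr123 (log2 -0.34 ± 0.31 SE, adjusted p = 0.404). CYP714C2 averaged 397 ± 8.81 for WT, 437 ± 88.0 for phr1, 474 ± 57.8 for phr3 and 390 ± 39.5 for phr123. Its neighbour CYP714C1 was dim, and its 2 probe sets went different ways. The one used read 69.7 to 85.6 in WT, above the reporter level on all 3 arrays, and was at or below that level on all 9 mutant arrays. The other read 8.9, 6.2 and 1.8 in WT, all below the reporter level, and 65.9, 108.1 and 4 in phr3, where 2 arrays were above it. No direction is given for this gene. Without the filter the fit did not call the differences of the probe set used from WT in phr1, phr3 or phr123 (adjusted p = 0.917, 0.534 and 0.163).

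The largest group was that of the diterpenoid phytoalexins, with 7 tested genes of the CYP76M and CYP99A subfamilies and CYP71Z6. In phr123, 5 of them were higher than in WT, CYP71Z6 was lower and CYP76M6 was not called. Over all probe sets, 20.5% were called higher and 21% lower. The 5 include the record named CYP76M7, a name less secure than the others. The median change of the 7 genes was 1.19, with a range from -0.83 to 3.60. In phr1 and phr3 none of the 7 was called.

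CYP99A2 and CYP99A3 act on the precursor of momilactone. CYP99A2 read 60.6, 110.8 and 54.8 in WT and 737.4, 993.2 and 890.5 in phr123. Its phr1 arrays lay between 77.8 and 105.6, and its phr3 arrays between 13.6 and 93.6. All 3 phr123 arrays were well above the other 9, which sat near the reporter level. The change from WT was 12.1-fold (log2 3.60 ± 0.54, adjusted p = 9.16e-05), and its size is uncertain because only 2 of 3 WT arrays were above the reporter level. CYP99A3 was brighter in WT (175, 183.5 and 115.4) and rose less, to 380.2, 324.7 and 358.7 (log2 1.19 ± 0.29, adjusted p = 0.00418). Its phr1 mean was 107 ± 18.3 and its phr3 mean 95.9 ± 33.3, neither called (adjusted p = 0.554 and 0.287).

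CYP76 was the only family with 4 or more tested members, and these CYP76M enzymes hydroxylate several phytoalexin diterpenes. All 4 genes had a positive difference between phr123 and WT, from 0.77 for CYP76M6 to 2.11 for CYP76M5 with a median of 1.31, and 3 were called. CYP76M7 read 336.4, 669.9 and 638.4 in WT and 1230.8, 1712.4 and 1589.2 in phr123, a rise of 2.86-fold (log2 1.51 ± 0.22, adjusted p = 8.30e-05). CYP76M8 went from 290.3, 363.1 and 399.9 to 816.1, 785 and 658.9 (log2 1.11 ± 0.29, adjusted p = 0.00710). Neither gene's phr123 arrays overlapped with those of any other genotype. The probe set of CYP76M8 is of the type that may match related sequences. CYP76M5 was dim, with 20.7, 59.8 and 46.9 in WT, of which 1 array was above the reporter level, and 297.3, 136.3 and 115 in phr123. It was called higher (log2 2.11 ± 0.53, adjusted p = 0.00522), and leaving out its brightest array, labelled phr123 replicate 1, gave 1.69 (adjusted p = 0.0410). The record that carries the name CYP76M7 lies on chromosome 6, apart from the other CYP76M genes and close to CYP734A4. That name is therefore less secure than the others, and so is its place in the counts of CYP76 and phytoalexin genes.

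CYP76M6 gave different answers with its 2 probe sets. The probe set chosen by the rule read 200.7, 131.9 and 203.9 in WT and 234.2, 430.8 and 264.6 in phr123. The groups did not overlap, but the difference was not called (log2 0.77 ± 0.30, adjusted p = 0.0546). It was called in 4 of 20 alternatives, 1 of them the fit that left out the array labelled phr123 replicate 1 (0.94, adjusted p = 0.0377). The other probe set read 20.1, 11.6 and 20.9 in WT and 1192.2, 884.2 and 1076.2 in phr123. All WT arrays were below the reporter level and all phr123 arrays far above it, a rise of at least 18.9-fold (adjusted p = 1.40e-06). This probe set passed the filter only through the phr123 arrays. Which part of the gene each probe set reads was not examined.

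**Figure D3:**
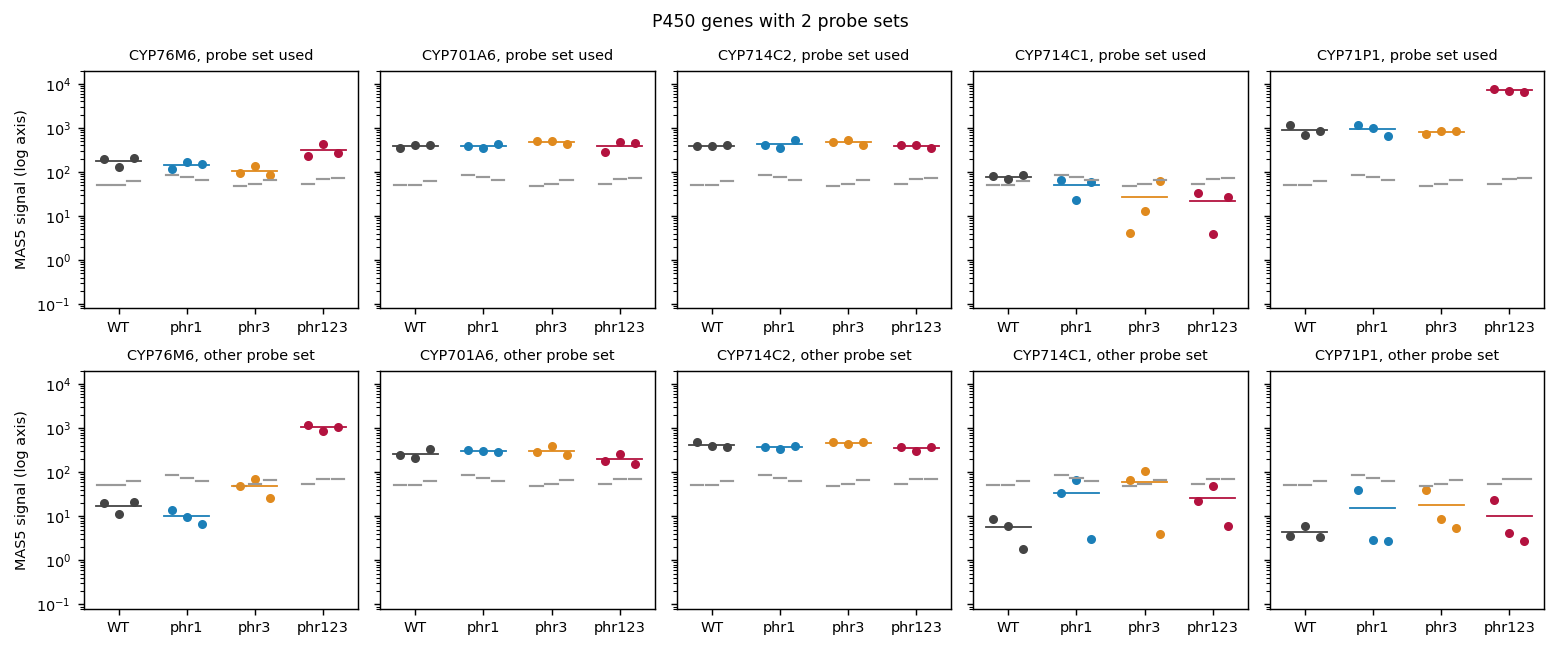
Signal per array (log axis, MAS5 units) for the 5 P450 genes with 2 probe sets, the probe set used above and the other below; points are arrays, coloured lines means of 3 and grey ticks the reporter level. For CYP76M6 the 3 phr123 arrays lie between 234.2 and 430.8 with the probe set used and between 884.2 and 1192.2 with the other; for CYP71P1 the other probe set is at or below the reporter level on all 12 arrays.

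CYP71Z6, which hydroxylates ent-isokaurene, was the exception in this group. It read 675.3, 703.2 and 773 in WT and 645.4, 274.9 and 366.6 in phr123. The highest phr123 array, the one labelled replicate 1, came close to the lowest WT array, and the groups did not overlap. The fall was called (log2 -0.83 ± 0.25, adjusted p = 0.0166). Leaving out the array labelled phr123 replicate 1 gave -1.17 (adjusted p = 0.000308), whereas the call ended without WT replicate 3 (adjusted p = 0.0566), phr123 replicate 2 (0.0849) or phr123 replicate 3 (0.0538).

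Except for the record named CYP76M7, the genes of this group lie in 2 stretches, on chromosomes 2 and 4, that also hold terpene synthases. From CYP76M5 to CYP76M6 the RefSeq order holds 10 protein-coding genes, of which 8 are described here. Of these, 5 were higher in phr123, CYP71Z6 was lower, and CYP76M6 and the synthase KSL5 were not called. Between CYP76M8 and CYP71Z6 lie LOC4329723, an unnamed gene that rose by 2.61 on the log2 scale (adjusted p = 3.80e-06), and KSL7, the synthase of the phytocassane precursor. KSL7 read 27.4, 4.1 and 10 in WT and 649.9, 818.6 and 778.9 in phr123, at least 13.5-fold higher (adjusted p = 0.000208). It passed the filter only through the phr123 arrays, so its part in the count of 5 was fixed by the filter. KSL5 and LOC4329723 were named for their place after their values had been seen.

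The second stretch runs from CPS4 to CYP99A2 and holds 6 protein-coding genes, 4 of which are described here. CPS4 makes syn-copalyl diphosphate, the first step to momilactone. It read 7.1, 20.1 and 45.7 in WT and 1099.8, 1030.8 and 1020.7 in phr123, at least 19.0-fold higher (adjusted p = 0.000214). Of the 3 genes tested there, CYP99A3 and CYP99A2 were higher in phr123. CPS4 was higher too, but it passed the filter only through the phr123 arrays, which fixed its part in this count. KSL4, the synthase that acts after CPS4, was below the filter, with 31.6, 2.3 and 46.3 in WT and 24.9, 174.6 and 146 in phr123. The array labelled phr123 replicate 1, the lowest of the 3, overlapped with WT. Without the filter the difference was not called (adjusted p = 0.213, and 0.109 when that array was left out). Of the 2 genes tested in the stretch from CYP701A9 to CYP701A6, CYP701A8 rose and CYP701A6 was not called.

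**Figure D4:**
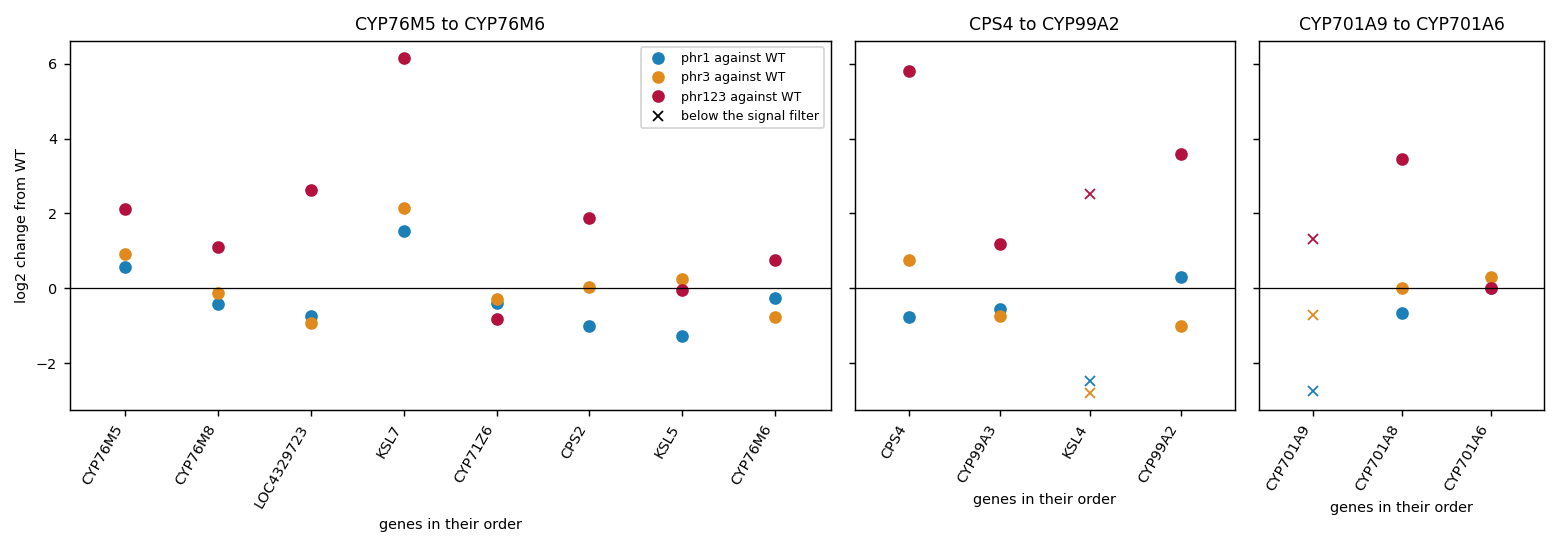
Change from WT (y axis, log2) of the P450 genes and their described neighbours in 3 stretches of the genome, in the order of the RefSeq annotation and not to scale; dots are tested genes and crosses genes below the signal filter, with values from the fit without it. In phr123, CYP71Z6 lies below 0 among neighbours of which 5 are called higher. The heights of KSL7 and CPS4, which passed the filter only through phr123, rest on signals below the reporter level and are not sizes.

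Of the partner genes of this pathway that are not P450 genes, 6 were matched and 4 were tested, and 3 of those were higher in phr123 (CPS4, KSL7 and CPS2). CPS4 and KSL7 passed the filter only through the phr123 arrays, so their part in this count was fixed by the filter. CPS2 and KSL5 passed without those arrays. CPS2 makes ent-copalyl diphosphate for phytoalexins and rose by 1.88 (SE 0.49, adjusted p = 0.00658). KSL10, a further phytoalexin synthase named here after its values were seen, was below the filter and at least 15.5-fold higher in phr123, with 749.6 to 977.5 there against 4.7 to 63.3 in WT. Without the filter its adjusted p was 0.000554. None of the 4 tested genes was called in phr1 or phr3. When the array labelled phr123 replicate 1 was left out, the call of CPS2 in phr123 held, at 2.25 (adjusted p = 0.00278). The calls of CPS4 and KSL7 held too. That is no check of these genes, since they passed the filter only through the phr123 arrays.

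CYP71P1, the tryptamine 5-hydroxylase that makes serotonin and whose loss gives the Sekiguchi lesion phenotype, rose strongly in phr123. Its arrays read 1161.9, 686.6 and 853.4 in WT, 1146.3, 1007 and 642.1 in phr1, and 717.4, 872.6 and 837.3 in phr3. In phr123 they read 7754.4, 6798 and 6701.8, all above every other array. The rise from WT was 8.04-fold (log2 3.01 ± 0.21, adjusted p = 5.60e-08), and leaving out the array labelled phr123 replicate 1 gave 2.94 (adjusted p = 2.15e-07). Its other probe set stayed at or below the reporter level on all 12 arrays. TDC2, a tryptophan decarboxylase that makes tryptamine, the substrate of CYP71P1, fell from 364 ± 31.2 in WT to 245 ± 40.8 in phr123 (log2 -0.58 ± 0.21, adjusted p = 0.0437), a call that ended when the array labelled phr123 replicate 1 was left out (-0.50, adjusted p = 0.118).

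The brassinosteroid group has 5 tested genes, and in phr123 4 of them were lower than in WT and none was higher. Over all probe sets, 21% were called lower and 20.5% higher. CYP90A3, CYP90B2, CYP90D2, CYP734A2 and CYP734A5, of the same families, had no probe set of their own and were not read. The tested genes stand on both sides of the hormone: CYP90A4, CYP724B1 and CYP85A1 belong to synthesis, and CYP734A4 and CYP734A6 inactivate the hormone. Their median change was -0.98.

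CYP90A4, also called CPD2, read 913.5, 904.1 and 881.3 in WT and 352.5, 418 and 640.9 in phr123. All phr123 arrays were below all WT arrays, and the level fell by 0.98 on the log2 scale (SE 0.20, adjusted p = 0.00110). Leaving out its lowest array, labelled phr123 replicate 1, gave -0.80 (adjusted p = 0.00471). CYP724B1, known as D11 from a dwarf mutant, read 134.6, 241.2 and 225.7 in WT and 69.4, 75.8 and 73.3 in phr123. The phr123 arrays were just above the reporter level, and below it with all reporter controls in that level, and the fall was 2.67-fold (log2 -1.42 ± 0.38, adjusted p = 0.00858). CYP85A1, the brassinosteroid C-6 oxidase, had a mean of 514 ± 60.4 in WT and 465 ± 34.1 in phr123 and was not called (log2 -0.14, 95% interval -0.46 to 0.18).

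CYP734A6 fell from 566.6, 556.3 and 619 in WT to 208.8, 306.2 and 278.5 in phr123, with no overlap (2.22-fold, log2 -1.15 ± 0.17, adjusted p = 7.26e-05). Leaving out the array labelled phr123 replicate 1 gave -0.99 (adjusted p = 0.000251). CYP734A4 read 323.3, 272.5 and 413.7 in WT and 243.1, 184.2 and 163.2 in phr123 and was called lower (log2 -0.77 ± 0.28, adjusted p = 0.0402). That call ended in 8 of 20 alternatives, whose adjusted p ran from 0.0109 to 0.154 over all 20. Leaving out 1 array ended it for WT replicate 1 (adjusted p = 0.0795), WT replicate 3 (0.154), phr3 replicate 1 (0.0504), phr123 replicate 2 (0.0964) and phr123 replicate 3 (0.129), and so did centring the arrays (0.0655).

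In phr1, 1 of 18 P450 genes was called, CYP701A8, where 0.934% of all probe sets were called, 0.448% higher and 0.486% lower. With so few genes, 1 call is no result about the group. At an unadjusted p under 0.05 there were 3, CYP701A8, CYP76M7 and CYP734A4, all lower. Of all 28597 probe sets tested, 2980 were under the same unadjusted cutoff, so 3 of 18 is no result about the group either. CYP701A8 fell from 415 ± 8.28 in WT to 264 ± 24.3 in phr1 (1.58-fold, log2 -0.66 ± 0.13, adjusted p = 0.0299), with no overlap between the arrays. The call ended in 11 of 20 alternatives, over which the adjusted p ran from 0.0181 to 0.118. Among these were the fits without WT replicate 1, 2 or 3 (adjusted p = 0.0872, 0.0979 and 0.108), phr1 replicate 1, 2 or 3 (0.0610, 0.0658 and 0.109) and phr123 replicate 2 or 3 (0.0605 and 0.0538).

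CYP76M7 read 263.8, 309 and 308.9 in phr1, all below its WT arrays, and was not called (log2 -0.84 ± 0.22, adjusted p = 0.122). Without WT replicate 1, its lowest WT array, it was called (adjusted p = 0.00577). CYP734A4 read 275.1, 133.8 and 134.4 in phr1, of which the first overlapped with WT, and was not called (log2 -0.96, adjusted p = 0.175). Without phr1 replicate 1 it was called (adjusted p = 0.0266).

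In phr3 none of the 18 P450 genes was called by limma, in the fit described or under any of the alternatives run, while 1.99% of all probe sets were called in the fit described, 1.26% higher and 0.731% lower. At an unadjusted p under 0.05 there were 2, CYP76M6 (log2 -0.77, adjusted p = 0.288) and CYP99A3 (log2 -0.74, adjusted p = 0.287), both with lower means than in WT. Of all 28597 probe sets tested, 3530 were under the same unadjusted cutoff, so these 2 of 18 are no result about the group. The smallest adjusted p among the 18 was 0.287. The 95% intervals differed in width: that of CYP701A8, the narrowest, ran from -0.27 to 0.30, and that of CYP99A2, the widest, from -2.17 to 0.14. Their median width was 1.15. The median change of the 18 genes was -0.11 in phr3 and -0.23 in phr1, against 0.01 over all probe sets in each.

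Between the mutants, phr123 differed from phr1 for 12 of 18 genes, 9 higher and 3 lower, where 42.8% of all probe sets were called, 20.8% higher and 22% lower. It differed from phr3 for 11 genes, 8 higher and 3 lower, where 41% of all probe sets were called, 19.1% higher and 21.9% lower. These comparisons share the phr123 arrays with the comparison against WT and are no separate evidence. CYP701A8 was 17.3-fold higher in phr123 than in phr1 (log2 4.11 ± 0.13, adjusted p = 7.38e-11) and 10.9-fold higher than in phr3 (log2 3.44, adjusted p = 3.70e-10). CYP99A2 was higher by 3.30 than in phr1 (adjusted p = 0.000192) and by 4.61 than in phr3 (adjusted p = 1.00e-05). The sizes are uncertain, since only 2 of 3 phr1 arrays and 1 of 3 phr3 arrays were above the reporter level. CYP71P1 was higher by 2.97 and 3.13 (adjusted p = 6.36e-08 and 4.39e-08).

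CYP76M6, not called against WT, was higher in phr123 than in phr1 (1.04, adjusted p = 0.0122, and 0.0719 without phr123 replicate 2) and than in phr3 (1.54, adjusted p = 0.000886). CYP76M5 was at or below the reporter level on all phr1 arrays and at least 2.21-fold higher in phr123 (adjusted p = 0.0294), but not called against phr3 (adjusted p = 0.0874). Its call against phr1 ended when the array labelled phr123 replicate 1 was left out (adjusted p = 0.164), and likewise for phr1 replicate 2 (0.102) and phr1 replicate 3 (0.0573). CYP88A5 was higher than in phr1 (1.12, adjusted p = 0.00593), and its call against phr3 (0.78, adjusted p = 0.0442) ended in 10 of 20 alternatives, among them that without the array labelled phr123 replicate 1 (0.149).

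Among the lower genes, CYP90A4, CYP734A6 and CYP724B1 were called in both comparisons. CYP90A4 changed by -1.22 on the log2 scale against phr3 (adjusted p = 0.000197) and by -1.05 against phr1 (adjusted p = 0.000636). CYP734A6 changed by -1.22 against phr3 (adjusted p = 4.72e-05) and by -0.90 against phr1 (adjusted p = 0.000571). CYP724B1 changed by -1.56 against phr1 (adjusted p = 0.00460) and by -1.26 against phr3 (adjusted p = 0.0173, and 0.0660 without phr3 replicate 2). CYP71Z6 and CYP734A4 were not called against either mutant. Without the array labelled phr123 replicate 1, CYP71Z6 was lower than in phr1 (-0.79, adjusted p = 0.00597) and than in phr3 (-0.88, adjusted p = 0.00292), and the counts were 8 higher and 4 lower against phr1 and 7 higher and 4 lower against phr3.

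Beside that of CYP76M6 against WT given above, the other probe sets gave 3 calls that the probe sets used did not. That of CYP701A6 was lower in phr123 than in phr1 (log2 -0.66, adjusted p = 0.0420) and than in phr3 (-0.66, adjusted p = 0.0458). That of CYP714C2 was lower in phr123 than in phr3 (-0.45, adjusted p = 0.0263). Leaving out the array labelled phr123 replicate 1 ended both calls of CYP701A6 (adjusted p = 0.105 and 0.114) but not that of CYP714C2 (-0.50, adjusted p = 0.0359).

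Between phr3 and phr1 a single P450 gene was called, where 1.68% of all probe sets were called, 0.997% higher and 0.678% lower. CYP701A8 was 1.59-fold higher in phr3 (423 ± 71.2) than in phr1 (264 ± 24.3), with no overlap (log2 0.67 ± 0.13, adjusted p = 0.0203). The call ended in 6 of 20 alternatives, among them those without phr1 replicate 2 (adjusted p = 0.0525), phr1 replicate 3 (0.0616), phr3 replicate 2 (0.0598) and phr3 replicate 3 (0.0854).

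Centring the arrays on their medians moved the split of calls over all probe sets by over 10 percentage points in 4 comparisons. The share of calls that were higher went from 47.9% to 25.4% for phr1 against WT, from 48.7% to 70.2% for phr123 against phr1, from 46.6% to 60.2% for phr123 against phr3, and from 59.5% to 78.8% for phr3 against phr1. It moved less for phr123 against WT, from 49.4% to 55.9%, where it crossed the even split, and for phr3 against WT, from 63.3% to 59.7%. The counts of P450 genes in these 4 comparisons were the same under centring. No called change of a P450 gene turned its direction under any of the alternatives run.

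Genes that share a pathway with the P450 genes were called in both directions, as were all probe sets (20.5% higher and 21% lower in phr123). Counts in lists this short are no result about a pathway. Of 7 gibberellin genes tested, 2 were higher and 2 lower in phr123. CPS1, which starts gibberellin synthesis, rose from 107 ± 10.4 to 281 ± 73.2 (log2 1.36, adjusted p = 0.00152), and the receptor gene GID1 rose by 0.64 (adjusted p = 0.00514). The record with the name of the F-box gene GID2, which also carries the name GF14E, fell from 9926 ± 94.3 to 4223 ± 783 (log2 -1.25, adjusted p = 5.50e-07). Which of these names its probe set stands for was not examined. Of 4 brassinosteroid genes, the co-receptor BAK1 was higher by 0.47 (adjusted p = 0.00263) and the receptor BRI1 lower, with a log2 change of -0.56 (adjusted p = 0.00348). The kinase gene GSK2 had a difference of -0.45 and was not called (adjusted p = 0.0538).

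Of 16 phenylpropanoid genes tested of 18 matched, 5 were higher and 5 lower in phr123, where 20.5% of all probe sets were called higher and 21% lower. PAL06, a phenylalanine ammonia-lyase, rose from 2566 ± 341 to 18762 ± 1289 (log2 2.88, adjusted p = 3.44e-10). The ligase gene 4CL5 rose by 2.23 (adjusted p = 1.74e-08) and the alcohol dehydrogenase gene CAD6 by 2.04 (adjusted p = 4.64e-07). In the single mutants 4CL5 was higher in phr3 (0.76, adjusted p = 0.00834). Of 3 strigolactone genes, the receptor gene D14 was higher in phr123 (1.19, adjusted p = 9.47e-09) and in phr1 (0.39, adjusted p = 0.0128). Of 5 cytokinin genes tested of 6 matched, the oxidase genes CKX4 (1.34, adjusted p = 1.39e-06) and CKX5 (0.49, adjusted p = 0.0153) were higher and CKX11 lower (-0.64, adjusted p = 2.17e-05) in phr123. CKX4 was also higher in phr3 (0.91, adjusted p = 0.00148). When the array labelled phr123 replicate 1 was left out, the call of CKX5 ended (0.39, adjusted p = 0.0724), as did those of the gibberellin gene KS1 (-0.31, adjusted p = 0.0995) and the phenylpropanoid gene HCT3 (-0.65, adjusted p = 0.109). GSK2 was then called lower (-0.60, adjusted p = 0.0177) and HCT2 higher (0.28, adjusted p = 0.0496). KS1, HCT3, HCT2 and CAB2R are named because their calls changed here, and the other genes named from these pathways kept their calls in phr123. No gene matched the list of reductases and cytochrome b5 proteins that pass electrons to P450 enzymes.

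Several markers of tissues also differed between phr123 and WT, some of them in phr1 or phr3 too. Over all probe sets, 41.5% were called between phr123 and WT. Summed over 5 leaf markers, the signal was 193524 to 196100 on the WT arrays and 125931 to 154425 on the phr123 arrays, and 3 of 4 tested leaf markers were lower, of which CAB2R was not called when the array labelled phr123 replicate 1 was left out (-0.25, adjusted p = 0.0543). The sum over 7 markers of dividing tissue was 1264 to 1463 in WT and 661 to 931 in phr123. It was 686 to 809 in phr3 and 1644 to 1649 in phr1. Of the 5 tested, 4 were called lower in phr123 and 2 in phr3. PCNA was not called in phr123, with a mean of 523 in WT and 524 in phr123 (adjusted p = 0.995). OSH1, a marker of the shoot apex, was at or below the reporter level on all arrays. The sum over 5 root markers was 3864 to 3997 in WT, 4621 to 4663 in phr1 and 3752 to 4482 in phr3. In phr123 it was 10213 on the array labelled replicate 1, through NAAT1, and 4484 and 4241 on the others. Of 4 tested root markers NAAT1 and IRO2 were higher in phr123 and NRAMP5 was lower (log2 -1.83, adjusted p = 3.63e-05), and the root silicon transporter LSI2 was at or below the reporter level on all arrays. The sum over 9 markers of flower and pollen was 13212 to 14342 in WT and 22309 to 23163 in phr123, most of it from 1 record with the name CP1. Of the 4 tested, that record was higher, and MADS16 (-0.73, adjusted p = 0.00343) and a record with the name MADS2 (-0.51, adjusted p = 0.0162) were lower. A further record with the name MADS2 was below the filter, with means of 40.4 in WT and 77.4 in phr123. It was not called in the fit without the filter (adjusted p = 0.820). A GAPDH control, read at its 3' and 5' ends to judge RNA quality, gave a log2 difference between the ends of 2.35 ± 0.14 for WT and 1.69 ± 0.14 for phr123 (SD, n = 3). The same difference was 2.87 ± 0.07 and 3.01 ± 0.15 for the actin control and 0.92 ± 0.09 and 1.04 ± 0.44 for the cyclophilin control. A further GAPDH control was variable, with 2.95 ± 3.34 and 3.42 ± 1.43. The part of tissue make-up and RNA quality in the changes of the P450 genes was not tested.

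CYP703A3, a fatty acid hydroxylase of the anther and pollen wall, and CYP87A3 lay at or below the reporter level on all 12 arrays. CYP703A3 read at most 51.2 and CYP87A3 at most 64.8, both in phr1. No fold is given for either gene.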

How the data were processed

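The values the authors deposited are signal intensities on a linear scale for each probe set of each array. They were made with MAS5, per the submitters' processing notes, which name no version. The trimmed mean was about 500.1 on every array. From there, values of 0 (8 of them) were set to 0.1, signals were taken to log2 without further scaling, and 28597 of 57194 non-control probe sets passed the filter. A model with 1 mean per genotype (limma 3.58.1 in R 4.3.3, eBayes with trend, 8 residual degrees of freedom) was fitted to 12 arrays. P-values from limma were adjusted over all tested probe sets (Benjamini-Hochberg), and the threshold was 0.05. The fit was tested on simulated data. The spread behind the p-values is that between these arrays.

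The array annotation gave each probe set's gene ID, and CYP names came from the RefSeq table (assembly ASM3414082v1) by that ID. No sequence was read. Where all arrays of the dimmer genotype were at or under their reporter levels, the change is a bound, "at least N-fold", of the brighter mean over that level. The 3 probe sets of 1 reporter sequence with signal in phr123 were left out of the level after the signal was seen. The members, the gene lists and the tests were chosen with earlier results of these data known. P450 genes were named by up to 8 calls each way against WT, up to 4 each way between mutants, and up to 4 per role; partner genes by up to 3 per list with the smallest adjusted p. Alternatives changed the scaling, the pseudocount (16), the filter, the variance model, the arrays and the probe set.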

Additional observations from a re-analysis of the deposited data

How the results depend on the processing

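The 45 changes of single P450 genes followed through 20 alternatives were those called in the fit described or in at least 1 alternative. Of these, 30 kept their side of the threshold in all of them, 15 did not, and 0 turned direction. Changes called in no fit were left out, so these counts are no rate of stability. The count of P450 genes lower in phr1 was 1 and fell to 0 with eBayes without a trend, with only the 2 genotypes compared, and with the replicate number as a block; leaving out single arrays gave 0 to 1. The count between phr3 and phr1 was 1 and fell to 0 without a trend and with only the 2 genotypes compared, and leaving out single arrays gave 0 to 1. The count lower in phr123 was 5, with 3 to 5 when single arrays were left out. The count higher in phr123 was 8, and 8 to 9 under every alternative. The causes were not tested. Centring shifted the median of all probe sets from 0.01 to -0.18 for phr1 against WT, from 0.02 to 0.11 for phr123 against WT, from -0.01 to 0.28 for phr123 against phr1, from -0.03 to 0.15 for phr123 against phr3, and from 0.01 to 0.12 for phr3 against phr1. Arrays with the same repeat number did not deviate together (r from -0.05 to 0.03 over 18 pairs, and 1 of 12 arrays closest to its own number), so the numbers were not taken as pairs. With the replicate block, 235 probe sets were called in phr1, 502 in phr3 and 11600 in phr123, against 267, 569 and 11882 without it. Signals near the reporter level limit CYP76M5, CYP99A2, CYP724B1 in phr123 and the 4 genes not tested. With all reporter controls in the reporter level, an alternative chosen after seeing the data, the bound of PHR2 went from 28.7 to 18.1, and the other bounds printed moved by at most 1.05 times.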
